A study of Mus musculus with 2 samples.

Results

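Migratory dendritic cells (DCs) from melanomas of human APOE4 and human APOE2 knock-in mice were described from single-cell transcriptomes. The cells are those to which the authors' deposited annotation gives the name Migratory DCs: 331 of 10050 annotated cells, of which 145 came from the APOE4 library and 186 from the APOE2 library. The host mice carried a human APOE allele (APOE4 or APOE2), and each of the 6 mice per genotype received 100000 YUMM1.7 cells, a mouse melanoma line, under the flank skin in Matrigel. On day 19 the tumours were taken, 10000 CD45+ DAPI− leukocytes were sorted from each mouse, and the cells of a genotype were pooled into 1 library of Chromium 3′ v3 chemistry. The age and sex of the mice were not used here. Cells of a pool cannot be assigned to a mouse, so genotype, pool and library cannot be told apart, no p-value was computed, and each interval covers counting error alone, not the spread between cells or mice.

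Dendritic cells take up antigen in tissues, and on activation a part of them turns on the chemokine receptor CCR7, which steers them along lymphatic vessels to the draining lymph node. There they present peptides on MHC molecules to T cells, together with costimulatory ligands and cytokines. In tumours such mature DCs are known to carry T cell-stimulating products such as interleukin 12 and T cell-restraining ones such as PD-L1 side by side.

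Migratory DCs were 2.69% of annotated cells (95% interval 2.28 to 3.16) in the APOE4 library and 3.99% (3.44 to 4.59) in the APOE2 library, a ratio of shares of 0.675 (0.545 to 0.836). The ratio depended on what the cells were counted against. Among the 4 labels migratory DCs, cDC 1, cDC 2 (the conventional DCs) and pDCs (plasmacytoid DCs) they made up 19.8% in the APOE4 library and 21.8% in the APOE2 library, a ratio of 0.909 (0.749 to 1.10). Among migratory and conventional DCs alone the shares were 27.6% and 25.1% in the APOE4 and APOE2 libraries, a ratio of 1.10 (0.912 to 1.32). A further label, Monocytic DCs, held 120 APOE4 cells and 233 APOE2 cells and was not counted among these 4. Depth per cell was a median of 7626 UMIs (unique molecules counted) from 2294 genes for APOE4 migratory DCs and 9131 UMIs from 2492 genes for APOE2 ones. Their counts summed to 1185668 UMIs in APOE4 and 1784631 UMIs in APOE2 cells. Mitochondrial genes gave a median of 2.04% of UMIs in APOE4 cells and 2.79% in APOE2 cells. No barcode was shared between the migratory DCs of the libraries, and 8 were shared among all annotated cells.

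The 4 genes given as markers of the label stood highest in it among all 26 labels in each library. Ccr7 (chromosome 11, 99144196 to 99155077, minus strand, mm10), the homing receptor, had a summed level of 4148 CPM (UMIs of the gene per 1000000 UMIs of the cells) in APOE4 migratory DCs and 4046 CPM in APOE2 ones. The next label, B cells, had 400.5 CPM in the APOE4 library and 647 CPM in the APOE2 library. Fscn1 (chromosome 5, 142960343 to 142973185, plus strand), which bundles actin in the dendrites of mature DCs, had 2415 and 2509 CPM in APOE4 and APOE2 migratory DCs, and stromal cells came next with 105 and 142 CPM. Ccl22 (chromosome 8, 94745590 to 94751699, plus strand), a chemokine for CCR4-bearing T cells, had 1252 and 1564 CPM in APOE4 and APOE2 cells. Il12b (chromosome 11, 44400063 to 44414033, plus strand), the p40 subunit of interleukin 12, had 1344 and 1638 CPM.

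Per cell the markers were less uniform. At least 1 UMI of all 4 was found in 70 APOE4 cells (48.3%) and 105 APOE2 cells (56.5%), and no cell lacked all 4. At an equal 3000 UMIs per cell, which left out 11 APOE4 cells and 6 APOE2 cells, Ccr7 was seen in 97.8% of cells of either library and Fscn1 in 87.3% of APOE4 and 90.0% of APOE2 cells. Il12b was seen in 53.7% of APOE4 and 58.9% of APOE2 cells at that depth (87 of 145 and 119 of 186 cells at full depth). As a gauge of free RNA, NK cells of cluster 2, with medians of 3817 and 4609 UMIs, gave shares thinned to the same depth of 0 for Il12b in either library, 0 and 0.571% for Fscn1, and 3.66% and 2.29% for Ccr7, APOE4 before APOE2.

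**Figure D1:**
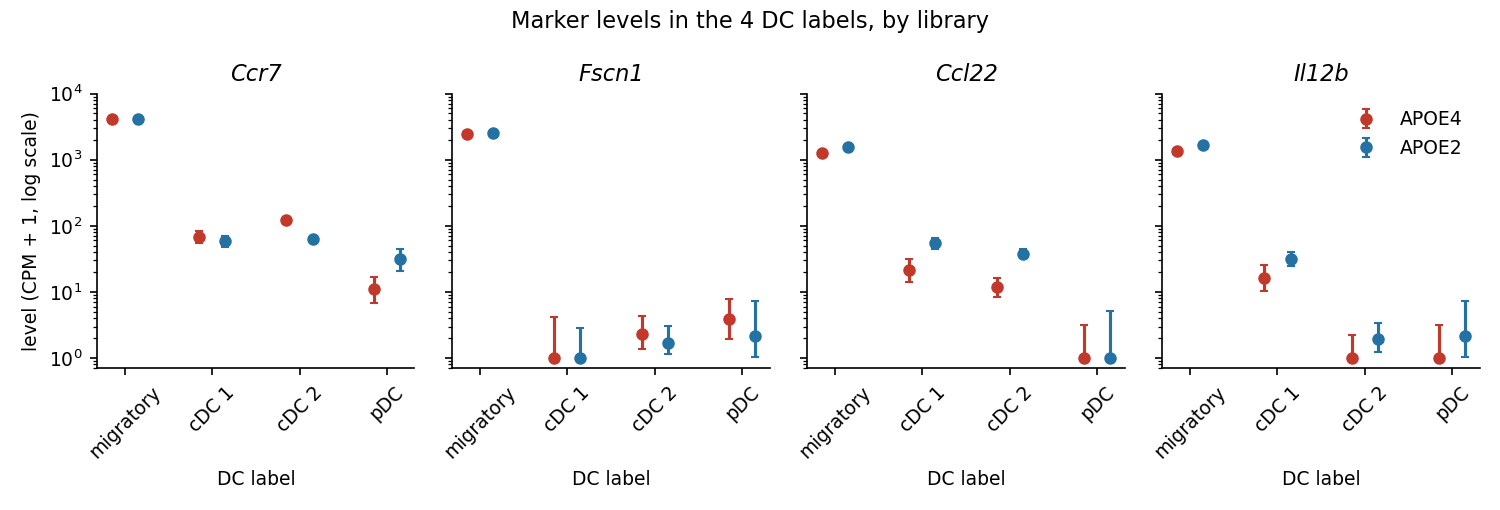
Summed level (CPM + 1, log axis) of 4 marker genes in the 4 DC labels, APOE4 in red and APOE2 in blue; bars are 95% Poisson intervals. Fscn1 stands at 2415 and 2509 CPM in APOE4 and APOE2 migratory DCs and at 0 CPM in cDC 1 of both libraries.

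The label was made by clustering these cells, so its contrast with the other DC labels is a description and was not tested. Levels were set against the highest of cDC 1, cDC 2 and pDCs on a CPM + 1 scale, averaged geometrically over both libraries. Of 11068 genes with 20 or more UMIs in the 4 labels, 782 (7.07%) were at least 2-fold above the highest other label and 886 (8.01%) at least 2-fold below the lowest. Among 15 genes with the largest ratio were Fscn1, Il12b and Ccr7. Others were Apol7c, an apolipoprotein L gene, with 206 and 156 CPM in APOE4 and APOE2 migratory DCs and 0 in all 3 other labels, and Cacnb3, a calcium channel subunit, with 635 and 567 CPM against at most 9.42 CPM. Cd63, a tetraspanin of late endosomes, had 1623 and 1394 CPM in migratory DCs against at most 21.0 CPM elsewhere. Nudt17, Tmem150c, Slco5a1, Mreg, Synpo2, Adcy6, Casc1, Gm13546 and Gm10851 completed the set.

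Genes of movement and maturation were mostly higher in the migratory label. Of 21 migration and cytoskeleton genes, 15 were at least 2-fold above every other DC label and 0 at least 2-fold below. Over all genes the shares were 7.07% and 8.01%. The 15 include Ccr7 and Fscn1, which were given as markers of the label. Besides Ccr7 and Fscn1 these included Marcks, an actin-linked kinase substrate (1773 and 1785 CPM in APOE4 and APOE2 migratory DCs, at most 456 CPM elsewhere), and Anxa3, an annexin (677 and 676 CPM, at most 23.8 CPM elsewhere). Of 30 NF-kB and survival genes, 18 were at least 2-fold above and 0 below; Relb, the non-canonical NF-kB subunit, had 836 and 646 CPM in migratory DCs against at most 92.5 CPM in the others.

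Costimulatory, regulatory and cytokine genes lay more often above than below the other DC labels. Over all genes the shares were 7.07% above and 8.01% below. Of 17 costimulation genes 10 were at least 2-fold above every other DC label and 1 at least 2-fold below, of 21 regulatory genes 10 and 2, and of 20 cytokine genes 8 and 1. Cd40 (336 and 287 CPM in APOE4 and APOE2 migratory DCs) and Cd80 (236 and 242 CPM) were among the higher ones, as were Cd274, which encodes PD-L1 (418 and 323 CPM), Il4i1, an amino acid oxidase (752 and 631 CPM), and Il15ra, which presents interleukin 15 (170 and 169 CPM). Il1b was lower than in cDC 2, with 1859 and 1758 CPM in migratory DCs against 3687 and 4996 CPM in cDC 2. Il12a, the other interleukin 12 subunit, had 0 and 1 UMI in APOE4 and APOE2 migratory DCs, and its highest DC level was 107 and 187 CPM in pDCs. Ido1 had 0 and 2 UMIs and Il23a and Ccl19 had 0 UMIs in either library; a count of 0, at a floor of 3 counts per library, allows up to 2.53 CPM in APOE4 and 1.68 CPM in APOE2 cells.

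MHC class II transcripts had a median log2 ratio of −1.04 to cDC 1, −1.48 to cDC 2 and 0.94 to pDCs over 15 genes. The 22 MHC class I and peptide loading genes had medians of 0.58, 0.81 and 0.38 to the same labels, with 4 genes at least 2-fold above every other label and 2 at least 2-fold below. H2-Ab1, a class II chain, had 3335 and 2686 CPM in APOE4 and APOE2 migratory DCs, against 10250 and 12218 CPM in cDC 2. H2-Eb2 went the other way, with 155 and 105 CPM against at most 10.4 CPM. Over all genes 7.07% were at least 2-fold above every other DC label and 8.01% at least 2-fold below. Of 22 genes of the unfolded protein response and endoplasmic reticulum folding, 12 were at least 2-fold below every other DC label, among them the chaperone Hspa5 (232 and 230 CPM, at least 750 CPM elsewhere). The median log2 ratio of that list was −1.42 to cDC 1, −1.22 to cDC 2 and −2.17 to pDCs, against −0.06, −0.17 and −0.35 over all genes.

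A small set of 17 cells (8 APOE4, 9 APOE2) lay apart from the others on the authors' embedding, within the range of the cDC 2 label. All 17 had Ccr7 UMIs and none had Il12b UMIs. Over both libraries their Ccr7 level was 1501 CPM, against 4221 CPM in the other 314 migratory DCs and 86.2 CPM in cDC 2. Fscn1 was at 197 CPM in them, against 2590 CPM in the other migratory DCs. Klrd1, a lectin-like receptor gene, was at 1182 CPM, against 137 CPM in the other migratory DCs and 651 CPM in cDC 2, and H2-Aa, a class II chain, at 11153 CPM against 4662 and 10488 CPM. Leaving these cells out changed the sign of 7 of 219 gene ratios and of 0 of the 71 that were 2-fold or more in either direction. Their genes were chosen for display after their values were seen.

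Between the libraries, 7746 genes had 20 or more UMIs in migratory DCs, and their median log2 ratio of CPM, APOE4 over APOE2, was 0.03. The ratio was 2 or more for 200 genes (2.58%), 0.5 or less for 221 genes (2.85%) and above 1 for 54.3%. The genes that define the label differed little. The ratio was 1.03 (0.989 to 1.06) for Ccr7, 0.963 (0.918 to 1.01) for Fscn1, 0.820 (0.771 to 0.872) for Il12b and 0.801 (0.751 to 0.853) for Ccl22. Over 19 migration and cytoskeleton genes 15 ratios were above 1, 0 reached 2-fold in either direction, and the median log2 ratio was 0.16.

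Interferon-stimulated genes were higher in the APOE4 library. All 40 genes measured of the 46 of the type I interferon list had a ratio above 1, 16 of them 2 or more, and their median log2 ratio was 0.87 (ratio 1.83). Isg15 (chromosome 4, 156199424 to 156200818, minus strand), a ubiquitin-like antiviral protein, had 995 UMIs in 94 APOE4 cells and 701 UMIs in 95 APOE2 cells. That is 839 CPM in APOE4 and 393 CPM in APOE2 migratory DCs, a ratio of 2.14 (1.94 to 2.36). Ifi27l2a, an interferon-induced mitochondrial protein, had 934 CPM in APOE4 and 386 CPM in APOE2 cells (ratio 2.42, 2.20 to 2.67). At 3000 UMIs per cell, Isg15 was seen in 47.8% of APOE4 and 34.4% of APOE2 cells. NK cells of cluster 2 had shares of 22.2% (103 of 465) in APOE4 and 12% (21 of 175) in APOE2, so theirs differed in the same direction. Whether the Isg15 UMIs of those NK cells were free RNA was not tested. Ifi27l2a was seen in 46.3% of APOE4 and 33.9% of APOE2 cells, against 14.2% and 12.6% of those NK cells. Isg20, an antiviral exonuclease, had 38.8 CPM in APOE4 and 8.97 CPM in APOE2 cells, with 46 and 16 UMIs (ratio 4.33, 2.40 to 8.19). The lowest ratios were near 1: Ddx58, the RNA sensor RIG-I, was at 18.6 CPM in APOE4 and 18.5 CPM in APOE2 cells.

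**Figure D2:**
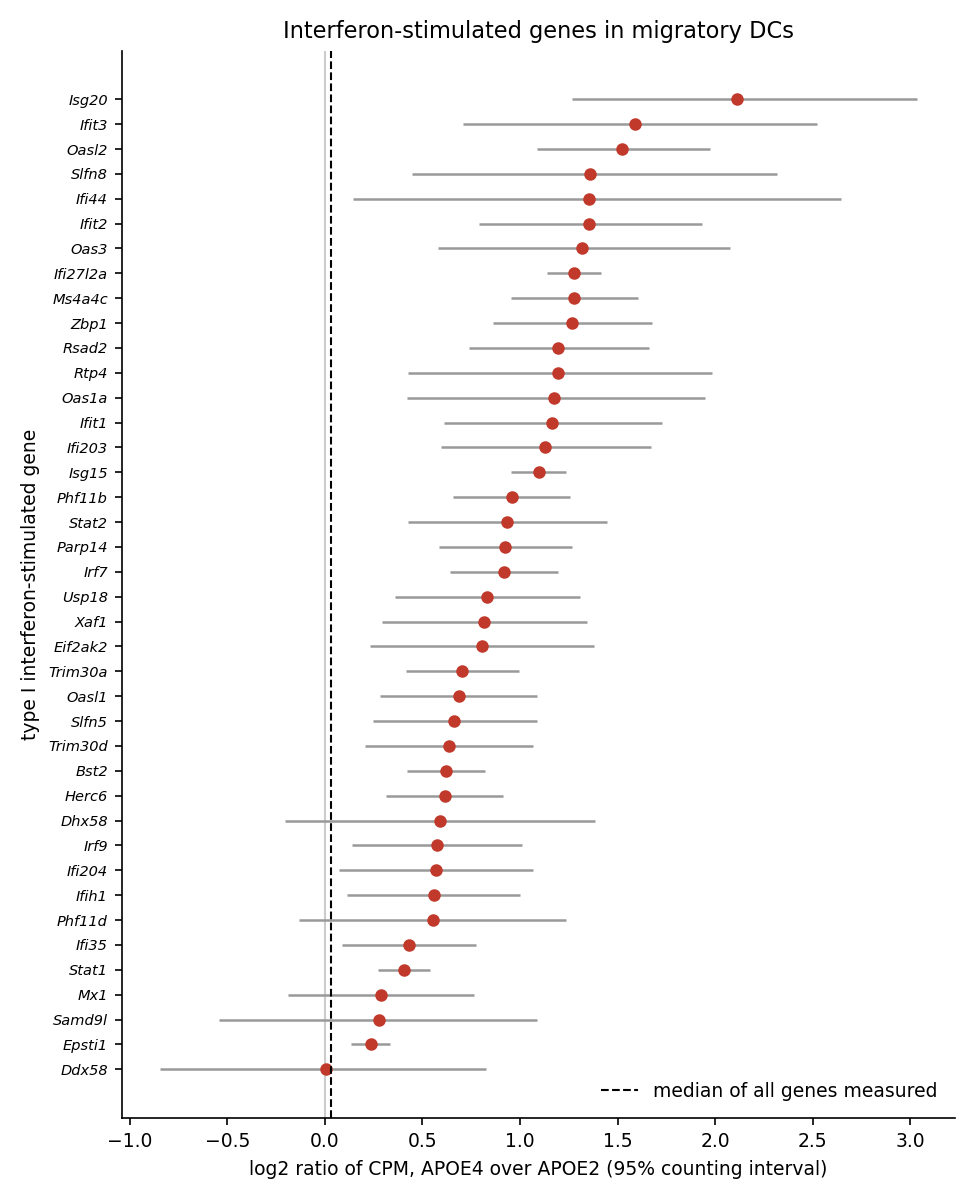
Log2 ratio of CPM, APOE4 over APOE2, of 40 type I interferon-stimulated genes in migratory DCs; bars are 95% counting intervals and the dashed line is the median of all genes measured (0.03). The points lie at or above 0, with Isg20 at 2.11 and Ddx58 at 0.00.

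The genes tied to interferon gamma lay closer to 1: of 24 measured, all had a ratio above 1 and 4 had 2 or more, with a median log2 ratio of 0.46. Irf8, a transcription factor of DC development, had 2073 CPM in APOE4 and 1525 CPM in APOE2 cells (ratio 1.36, 1.29 to 1.44). All 7 measured genes of the Pyhin family (interferon-inducible, with DNA sensors among them) had ratios above 1, and Pydc4 had 39.6 CPM in APOE4 and 6.72 CPM in APOE2 cells. Members of the Ifit, Oas, Gbp and Pyhin families resemble each other in sequence, and reads that fall equally on several genes could be lost or split in the authors' counting.

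Promoters of 3 of these genes are shown because they carry the motif that interferon-activated factors bind. They are windows of 300 bases, from 250 before to 50 after the RefSeq start (GRCm38.p6), written 5′ to 3′ on the gene's strand: chr4:156200769-156201068 for Isg15 (minus strand), chr5:92348840-92349139 for Cxcl10 (minus strand) and chr19:34583279-34583578 for Ifit3 (plus strand). Capitals mark matches to GAAANNGAA on either strand, the core of the interferon-stimulated response element. Isg15 holds 3 overlapping matches, Cxcl10 holds 1 and Ifit3 holds 3 on the opposite strand.
Isg15: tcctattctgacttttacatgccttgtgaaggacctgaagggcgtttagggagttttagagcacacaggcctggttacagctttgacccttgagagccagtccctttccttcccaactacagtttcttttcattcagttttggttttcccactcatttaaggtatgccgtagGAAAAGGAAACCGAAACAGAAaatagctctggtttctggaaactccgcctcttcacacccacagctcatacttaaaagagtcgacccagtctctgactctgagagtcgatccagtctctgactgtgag
Cxcl10: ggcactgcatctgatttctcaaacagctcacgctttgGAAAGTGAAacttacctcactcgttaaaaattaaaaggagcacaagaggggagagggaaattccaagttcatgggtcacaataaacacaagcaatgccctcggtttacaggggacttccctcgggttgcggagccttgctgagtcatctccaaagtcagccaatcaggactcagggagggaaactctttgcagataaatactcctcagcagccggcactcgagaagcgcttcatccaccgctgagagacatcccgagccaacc
Ifit3: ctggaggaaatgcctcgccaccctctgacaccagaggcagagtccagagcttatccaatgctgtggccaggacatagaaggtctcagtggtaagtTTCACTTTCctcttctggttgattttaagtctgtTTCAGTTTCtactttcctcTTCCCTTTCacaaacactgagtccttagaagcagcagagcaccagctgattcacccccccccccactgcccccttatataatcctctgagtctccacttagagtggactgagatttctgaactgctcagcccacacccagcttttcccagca
Of 35 genes of the type I list with a window, 21 held the motif, and of 19 genes of the interferon gamma list 14. Among all 27025 genes with a window 2638 (9.76%) did, and among 14 migration and cytoskeleton genes 0. Of the 16 type I genes at 2-fold or more, 13 had a window and 9 of those held the motif. A match is a string of letters and was not tested as a binding site.

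MHC class I genes were moderately higher in APOE4 cells. Of 22 class I and peptide loading genes 21 had ratios above 1, 0 reached 2-fold, and the median log2 ratio was 0.41. H2-K1, a classical class I heavy chain, had 5100.1 CPM in APOE4 and 3750 CPM in APOE2 cells (ratio 1.36, 1.31 to 1.41), and B2m, its light chain, 4751 and 3640 CPM. H2-Q6 and H2-Q7, non-classical class I genes that resemble each other, had 627 and 1484 CPM in APOE4 cells, against 391 and 987 CPM in APOE2 cells. Of 14 class II genes 12 had ratios above 1, with a median log2 ratio of 0.23; the invariant chain Cd74 was at 9161 CPM in APOE4 and 9241 CPM in APOE2 cells, a ratio of 0.991.

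Chemokines differed most of the lists described. Of 16 measured, 10 had a ratio of 0.5 or less and 2 of 2 or more, with a median log2 ratio of −2.13. Ccl17 (chromosome 8, 94810453 to 94812036, plus strand), the other ligand of CCR4, had 200 UMIs in 25 APOE4 cells and 1341 UMIs in 76 APOE2 cells. Its level was 169 CPM in APOE4 and 751 CPM in APOE2 migratory DCs, a ratio of 0.224 (0.193 to 0.261). A single APOE4 cell held 104 of the 200 UMIs. The log2 ratio was −2.16 over all cells, −4.07 without the 5 highest cells of each library, and −4.60 without the 52 APOE4 and 63 APOE2 cells that had 2 or more UMIs of T, NK, B, neutrophil or mast cell markers. Ccl17 was seen in 6.72% of APOE4 and 30.0% of APOE2 cells at 3000 UMIs per cell, against 0.430% and 0 of NK cells of cluster 2. Ccl17 also lay lower in APOE4 cells of the other conventional DC labels, with 1.72 CPM in APOE4 and 177 CPM in APOE2 cDC 1, and 41.9 CPM in APOE4 and 299 CPM in APOE2 cDC 2. Ccl22, its neighbour on chromosome 8, differed far less.

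Cxcl2, a neutrophil attractant, had 108 UMIs in 22 APOE4 cells and 698 UMIs in 66 APOE2 cells (ratio 0.233, 0.188 to 0.286). Cxcl1, of the same group, had 19 UMIs in 5 APOE4 cells and 198 UMIs in 31 APOE2 cells. In cells thinned to equal depth, Cxcl2 was seen in 8.96% of APOE4 and 22.2% of APOE2 migratory DCs. NK cells of cluster 2 had 2.80% and 9.14%, so theirs differed in the same direction. Shares were 5.49% and 11.3% in cDC 1, 13.8% and 41.4% in cDC 2, and 2.96% and 10% in pDCs, APOE4 before APOE2. The direction was thus not particular to migratory DCs. Whether the Cxcl2 UMIs of those NK cells were free RNA was not tested. Ccl5, a T cell-attracting chemokine and the most abundant one of the label, had 5710 CPM in APOE4 and 6976 CPM in APOE2 cells (ratio 0.818, 0.794 to 0.843). Cxcl16 had 1131 CPM in APOE4 and 963 CPM in APOE2 cells (ratio 1.17).

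Monocyte and macrophage chemokines rested on few cells. Ccl8 had 0 UMIs in APOE4 cells and 138 in APOE2 cells, at least 30.6-fold lower at a floor of 3 counts per library, but 122 of the 138 UMIs lay in 1 APOE2 cell. Ccl6 had 9 UMIs in APOE4 and 266 in APOE2 cells, and Ccl9 27 and 210. C1qa, C1qb and C1qc, complement genes that mark macrophages, had 3 or more UMIs together in 4 APOE4 cells and 12 APOE2 cells, which held 120 of 131 and 827 of 867 such UMIs. Those 12 APOE2 cells held 227 of the 266 Ccl6 UMIs, 132 of the 138 Ccl8 UMIs and 282 of the 698 Cxcl2 UMIs, but 127 of the 1341 Ccl17 UMIs. Without the C1q cells of both libraries the chemokine median log2 ratio was −1.32, that of Ccl17 −2.12, of Cxcl2 −1.47 and of Ccl6 −1.62.

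The interferon-inducible ligands of CXCR3, a receptor of effector T cells, went the other way. Cxcl9 had 349 UMIs in 19 APOE4 cells and 138 UMIs in 14 APOE2 cells, 294 CPM in APOE4 and 77.3 CPM in APOE2 migratory DCs (ratio 3.81, 3.12 to 4.67). The 5 highest cells held 272 of the 349 UMIs in APOE4 and 122 of the 138 in APOE2. Its log2 ratio was 1.93 over all cells, 2.86 without those cells and 5.01 without the cells with markers of other lineages. Without the 5% of cells with the most UMIs it was 1.41. Cxcl10 had 276 UMIs in 26 APOE4 cells and 137 UMIs in 31 APOE2 cells (ratio 3.03, 2.46 to 3.75), and the 5 highest APOE4 cells held 237 UMIs. Without the 5 highest cells of each library its log2 ratio was 0.35, against 1.60 with them.

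**Figure D3:**
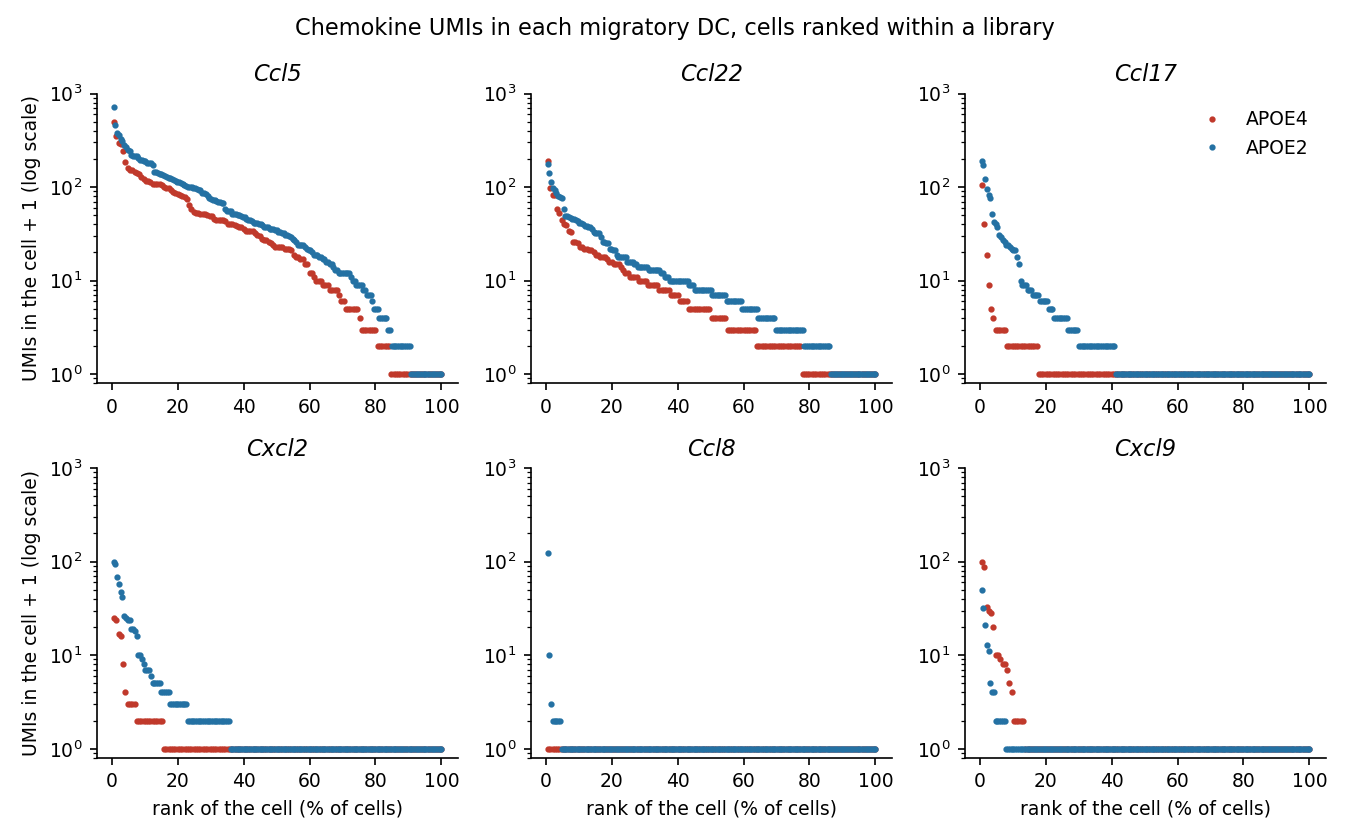
UMIs per cell plus 1 (log axis) of 6 chemokines, with the migratory DCs of each library (APOE4 red, APOE2 blue) ranked from the highest. Ccl5 and Ccl22 were spread over most cells, Ccl17 over 25 APOE4 and 76 APOE2 cells, Ccl8 lay mainly in 1 APOE2 cell and Cxcl9 in 19 APOE4 and 14 APOE2 cells.

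Costimulation genes had no common direction: of 16 measured 7 had ratios above 1 and 1 was at 0.5 or less, with a median log2 ratio of −0.02. Members of the tumour necrosis factor ligand and receptor families ran in both directions. Cd40 had 336 CPM in APOE4 and 287 CPM in APOE2 cells (ratio 1.17). Cd70, the ligand of CD27, had 32.0 CPM in APOE4 and 72.3 CPM in APOE2 cells (ratio 0.443). Tnfrsf9, which encodes 4-1BB, had 134 CPM in APOE4 and 245 CPM in APOE2 cells (ratio 0.548), and its ligand gene Tnfsf9 had 77.6 and 129 CPM (ratio 0.602). Tnfsf4, the OX40 ligand, had 70.8 CPM in APOE4 and 122 CPM in APOE2 cells (ratio 0.583), while Tnfrsf4, OX40 itself, had 257 and 259 CPM. The B7 genes Cd80 and Cd86 were close to 1, with ratios of 0.978 and 1.08. Cd1d1, which presents lipids to NKT cells, had 163 CPM in APOE4 and 103 CPM in APOE2 cells (ratio 1.59).

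Of 19 regulatory genes 14 had ratios above 1, 3 of them 2 or more, with a median log2 ratio of 0.25. Over all genes 54.3% had ratios above 1 and 2.58% had 2 or more. Cd274 had 418 CPM in APOE4 and 323 CPM in APOE2 cells (ratio 1.29, 1.15 to 1.46), and Pdcd1lg2, which encodes PD-L2, 142 and 140 CPM. Socs2, a brake on cytokine signalling, had 762 CPM in APOE4 and 524 CPM in APOE2 cells (ratio 1.45, 1.32 to 1.59). Havcr2, which encodes TIM-3, had only 25 UMIs in APOE4 and 11 in APOE2 cells. Of 13 cytokine genes 8 had ratios above 1, little more than the share over all genes, and 0 reached 2-fold. Il18bp, which traps interleukin 18, had 90.2 CPM in APOE4 and 51.6 CPM in APOE2 cells (ratio 1.75), and Il1rn, the interleukin 1 receptor antagonist, 164 and 105 CPM (ratio 1.56). Ebi3, a subunit of interleukins 27 and 35, had 56.5 CPM in APOE4 and 85.7 CPM in APOE2 cells (ratio 0.659), and Il1b had 1859 and 1758 CPM.

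Sterol genes differed in direction between lists. Of 19 cholesterol synthesis genes 16 had ratios above 1, 1 of them 2 or more, with a median log2 ratio of 0.50. Hmgcs1, an early enzyme of the pathway, had 59.0 CPM in APOE4 and 28.0 CPM in APOE2 cells (ratio 2.11, 1.45 to 3.09), and Idi1 151 and 89.1 CPM (ratio 1.69). Of 17 efflux and LXR target genes 13 had ratios below 1, with a median log2 ratio of −0.37. Abca1, the cholesterol exporter, had 7 UMIs in 6 APOE4 cells and 51 UMIs in 20 APOE2 cells (ratio 0.207, 0.0791 to 0.457). Reads counted on mouse Apoe, the gene that the knock-in concerns, gave 12 UMIs in APOE4 and 74 UMIs in APOE2 cells, of which 1 APOE2 cell held 35; how human APOE reads were handled is not given in the sources used here. The list medians of efflux and ATF4 genes came close to 0 or changed sign under other settings, with ranges of −0.42 to 0.06 and −0.57 to 0.04.

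Of 23 hypoxia and glycolysis genes 18 had ratios below 1 (median log2 ratio −0.24), among them Pgam1 (91.9 CPM in APOE4 and 157 CPM in APOE2 cells) and Ldha (189 and 264 CPM). Asns, asparagine synthetase of the ATF4 amino acid response, had 20 UMIs in 17 APOE4 cells and 1 UMI in APOE2 cells, a ratio of 30.1 with an interval of 4.81 to 1248. It had 15.9 CPM in APOE4 and 1.39 CPM in APOE2 cDC 2 as well. Of the 11 measured genes of its list, 7 had ratios below 1.

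By the interval bound nearest to 1, the 12 highest ratios among genes with 50 or more UMIs included, besides Cxcl9, Ifi27l2a and Ifitm3, the gene Fam177a, which was found in most cells. It had 1182 CPM in 138 APOE4 cells and 663 CPM in 173 APOE2 cells (ratio 1.78, 1.65 to 1.93). Klrk1, which encodes the receptor NKG2D, had 378 CPM in APOE4 and 207 CPM in APOE2 cells (ratio 1.82), with UMIs in 107 and 114 cells. Procr, the protein C receptor, had 133 CPM in APOE4 and 66.1 CPM in APOE2 cells. Kdr, a VEGF receptor, had 40 UMIs in 16 APOE4 cells and 11 UMIs in 9 APOE2 cells. Zbtb10, Dram1, Gm37422 and Tmem198b had ratios between 2.40 and 3.60. Sct had a ratio of 8.36, but 49 of its 50 APOE4 UMIs lay in 1 cell.

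Among the 12 lowest were, besides Ccl17 and Cxcl1, Cd81, a tetraspanin gene, with 179 CPM in 36 APOE4 cells and 387 CPM in 89 APOE2 cells (ratio 0.462, 0.394 to 0.539). H2-M2, a non-classical class I gene at 0 or under 0.5 CPM in the other DC labels, had 33.7 CPM in 13 APOE4 cells and 93.6 CPM in 51 APOE2 cells (ratio 0.361, 0.249 to 0.512). Hist1h1c, a linker histone gene, had 32 UMIs in APOE4 and 154 in APOE2 cells; Clu, which encodes clusterin, had 17.7 CPM in APOE4 and 56.0 CPM in APOE2 cells, and Ninj1, an adhesion protein gene, 46.4 and 104 CPM. Wnt11, Ttc39c, Cystm1 and Sod3 had ratios between 0.306 and 0.448. Cd207, which encodes langerin and marks Langerhans cells, had 0 UMIs in APOE4 cells and 149 in APOE2 cells, and all 149 lay in 1 cell.

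Markers of other cell types were found in part of the migratory DCs. In all, 52 of 145 APOE4 cells and 63 of 186 APOE2 cells had 2 or more UMIs of T, NK, B, neutrophil or mast cell markers. Of the mast cell marker UMIs, 77 of 78 in APOE4 and 92 of 149 in APOE2 cells came from Kit. No APOE4 cell held more than 5 mast cell marker UMIs, and the 5 highest APOE4 cells held 17. The 5 highest APOE2 cells held 63, with a maximum of 46. How many cells reached the cutoff through Kit alone was not counted. The Ccl17 and Cxcl9 values without these cells share that limit. The 16 cDC1 markers summed to 2416 CPM in APOE4 and 1947 CPM in APOE2 cells, with a median of 16 UMIs per cell in either library. Irf8 alone, at the levels given above, made up most of both sums and of their difference. Of 11 cDC1 markers measured, 9 had ratios below 1, with a median log2 ratio of −0.60. The 16 cDC2 markers summed to 633 and 867 CPM in APOE4 and APOE2 cells, and 10 of 13 measured had ratios below 1 (median −0.55). The 16 macrophage and monocyte markers summed to 1392 CPM in APOE4 and 1606 CPM in APOE2 cells, with a median of 1 UMI per cell in either library, and the 5 highest cells held 845 of 1651 UMIs in APOE4 and 1747 of 2866 in APOE2. Of 15 measured, 12 had ratios below 1, and the list median of −0.76 ranged from −2.51 to 0.37 under other settings. Plac8, in contrast, had 632 CPM in APOE4 and 117 CPM in APOE2 cells (ratio 5.39, 4.62 to 6.32) and Ly6c2 54.8 and 9.53 CPM. Plac8 differed in the same direction in cDC 2, with 2411 CPM in APOE4 and 638 CPM in APOE2 cells. NK markers other than Ccl5 summed to 306 CPM in APOE4 and 102 CPM in APOE2 cells, and 5 APOE4 cells held 336 of the 363 UMIs. The NK list's median log2 ratio of 1.44 was −0.10 without the cells with markers of other lineages. Those cells were picked by the NK markers among others, so a loss of NK marker UMIs was built in. The −0.10 equals the log2 ratio of Ccl5 in that setting, a list member not used to pick the cells. It does not describe the other NK genes. T cell markers summed to 180 and 108 CPM, B cell markers to 5.90 and 7.28 CPM with Cd79a and Pax5 at 0 in both libraries, and neutrophil markers to 48.9 and 150 CPM in APOE4 and APOE2 cells. The part of such cells in the results was not tested beyond leaving them out, as given above for C1q.

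Beside the other DC labels, each with its own all-gene median log2 ratio between 0.02 and 0.05, the interferon lists had positive medians in all 4 labels. The type I list had a median log2 ratio of 0.87 in migratory DCs, 1.31 in cDC 1, 1.60 in cDC 2 and 2.03 in pDCs. The interferon gamma list had 0.46, 0.94, 1.73 and 1.34 in the same order. Isg15 had 1018 CPM in APOE4 and 278 CPM in APOE2 cDC 2, and 572 and 85.3 CPM in pDCs, so that its APOE2 level was highest in migratory DCs. The class II list had 0.23 in migratory DCs, −0.20 in cDC 1, −0.21 in cDC 2 and −0.03 in pDCs, and the chemokine list −2.13, −0.54, −0.80 and 0.37. The labels come from the same 2 libraries, and the differences between them were not tested.

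**Figure D4:**
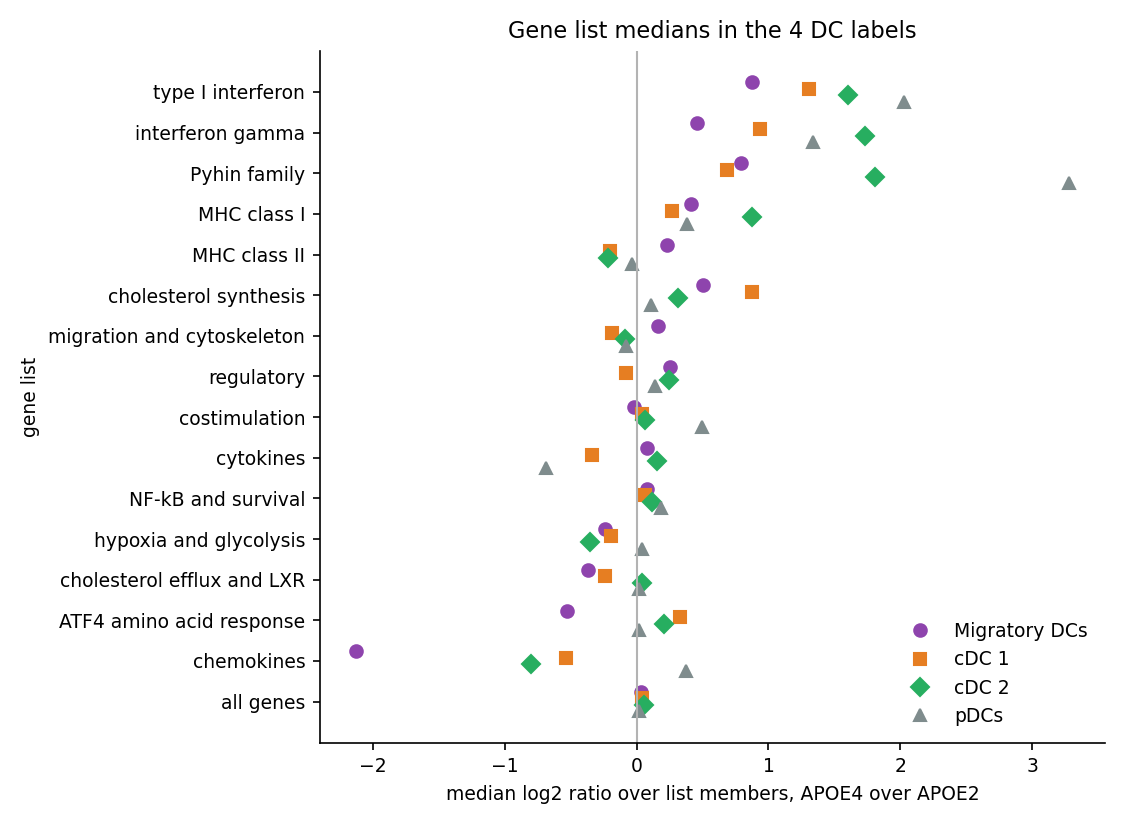
Median log2 ratio of CPM, APOE4 over APOE2, over members with 20 or more UMIs of 15 gene lists and of all genes, in migratory DCs and the 3 other DC labels. The type I interferon medians run from 0.87 in migratory DCs to 2.03 in pDCs, and the chemokine median is −2.13 in migratory DCs.

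Within the label, cells with and without Il12b UMIs differed in other genes too. Il12b was found in 87 of 145 APOE4 cells and 119 of 186 APOE2 cells, with a median of 11 UMIs in APOE4 and 15 in APOE2 cells that had any. Depth differed with the split in APOE2 cells, where cells with Il12b had a median of 10179 UMIs and cells without it 7301, but less so in APOE4 cells, with 7745 and 7604.5 UMIs. Genes were ranked by the ratio of cells with to cells without Il12b in the APOE2 library and then read in the APOE4 library, which had no part in the ranking. Of 85 genes at 2-fold or more in APOE2 cells, 74 had a ratio above 1 in APOE4 cells and 22 had 2 or more. Over all 3040 genes with 50 UMIs in each library, 52.8% were above 1 and 2.47% at 2 or more in APOE4 cells. Of 63 genes at 0.5 or less in APOE2 cells, 61 were below 1 and 18 at 0.5 or less in APOE4 cells, against 47.2% and 1.84% of all.

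Cells with Il12b had more Cd81, with 264 CPM in cells with and 41.9 CPM in cells without it in the APOE4 library (ratio 6.30, 3.92 to 10.7). Lyz2, the lysozyme gene, was at 458 and 185 CPM in APOE4 cells with and without Il12b, and Slc27a3, a fatty acid transport family member, at 228 and 48.5 CPM. Ccl5 was at 6685 CPM in APOE4 cells with Il12b and 4137 CPM in those without. Lower in cells with Il12b were Ccnd1, which encodes cyclin D1 (73.8 and 406 CPM in APOE4 cells with and without), the class II genes H2-DMb2 (43.7 and 258 CPM) and H2-Ab1 (2262 and 5065 CPM), and Fabp5, a fatty acid-binding protein gene (2171 and 4594 CPM). Net1, among the 10 highest in APOE2, had a ratio of 1.03 in APOE4 cells. The 17 cells apart on the embedding all fall on the side without Il12b. Without them the sets were drawn anew from APOE2 cells. Then 59 of 71 genes at 2-fold or more, and 27 of 33 at 0.5 or less, kept their direction in the APOE4 library. Of all 2895 genes in that setting, 1513 were above 1 and 1382 below 1 in APOE4 cells. APOE4 cells without Il12b then had 225 CPM of Ccnd1, 153 CPM of H2-DMb2 and 4567 CPM of Fabp5. H2-Ab1 was no longer among the 10 lowest in APOE2. Ccl17 was found in 12.6% of APOE4 cells with Il12b and 24.1% of those without, and in 45.4% and 32.8% of APOE2 cells.

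**Figure D5:**
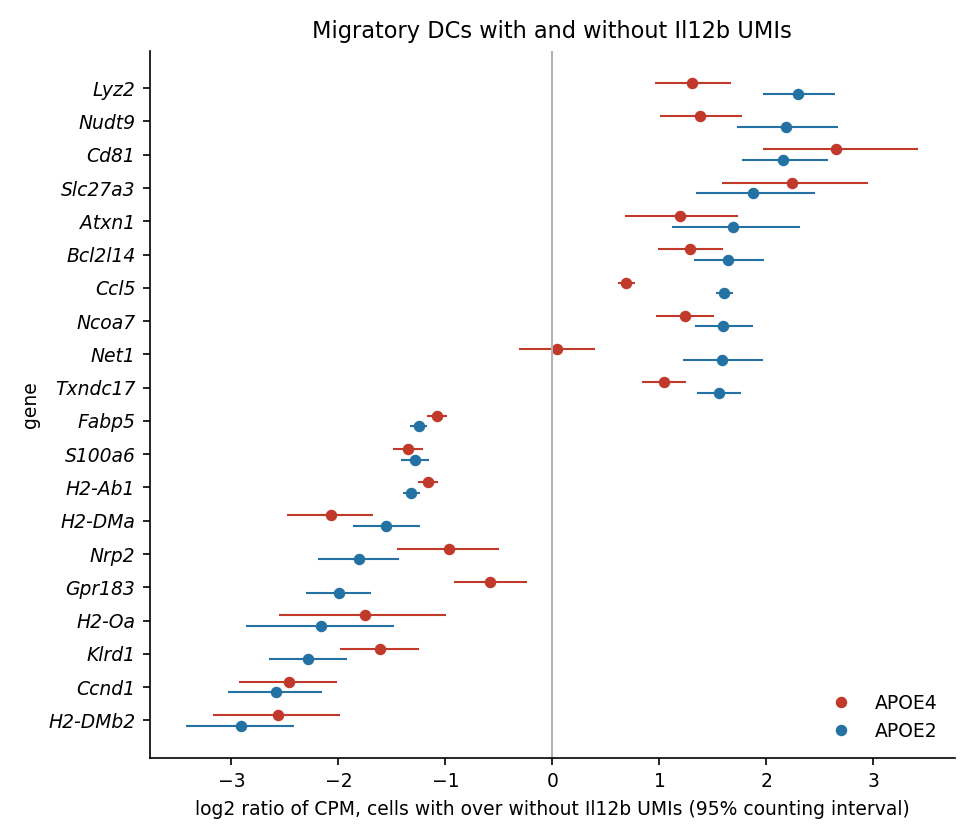
Log2 ratio of CPM, cells with over cells without Il12b UMIs, of the 10 highest and 10 lowest genes of the APOE2 ranking, with 95% counting intervals; APOE4 in red, APOE2 in blue. All but Net1 keep a clear direction in APOE4 cells, and Net1 stands at 0.04 there.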

How the data were processed

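For each library the authors deposited a matrix of unnormalized counts (UMIs of a gene in a barcode), made with Cell Ranger 3.0.1, per the file headers, on mm10, per the submitters' processing notes. The authors' cell table, made with Seurat 3.0.2 per those notes, gives library, cell type name, UMAP coordinates (a score with no unit) and the percent of UMIs from mitochondrial genes, as deposited. How cells were called, filtered or checked for doublets is not given in the sources used here, and no doublet caller was run.

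UMIs of annotated cells were summed per label and library (27998 gene IDs, 27933 symbols) and divided by their total to give CPM. Ratios carry exact conditional binomial 95% intervals, shares exact Clopper-Pearson intervals, and levels exact Poisson intervals. PCR and sorting are not covered. Where a count was 0, 0.5 was added for the fitted log2 ratio only. List medians use members with 20 or more UMIs, and shares of cells were also taken after thinning to 3000 UMIs (seed 0). Steps were tested on simulated data. Python 3.11.15, numpy 2.4.6, scipy 1.17.1, pandas 2.3.3 and matplotlib 3.10.9 were used.

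The cells described and all 35 gene lists were chosen with earlier results of these data known. Genes were named by rule: the 12 highest and 12 lowest ratios by the bound nearest to 1 among genes with 50 or more UMIs and at least 10% of their highest label's CPM; the 15 genes highest against other DC labels; any gene of the marker, migration, chemokine, cytokine, costimulation and regulatory lists; and, of each other list, the 2 highest, 2 lowest and 2 most abundant members. Isg15, Ifit3, Ddx58, Relb, H2-Ab1, Hspa5, the C1q genes, the B cell markers at 0 and the genes of the cells apart and of the Il12b split fall outside it and were chosen after their values were seen. Ccl5, which migratory DCs express, was left out of the NK list when cells with markers of other lineages were removed. Kit was not left out of the mast cell list. Alternatives without the highest 5 cells of a gene, without C1q cells and without the cells apart were added after seeing the data.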

Additional observations from a re-analysis of the deposited data

How the results depend on the processing

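With 1 pooled library per genotype no replicate could be left out, and values below are descriptions. No paired analysis was possible because each genotype has 1 library. The ratio of shares was 0.909 among the 4 DC labels, 0.862 among myeloid labels and 1.10 among conventional and migratory DCs, against 0.675 of all annotated cells. The chemokine median log2 ratio of −2.13 became −1.46 without the 5% of cells with the most UMIs, −1.67 in cells thinned to 3000 UMIs and, chosen after seeing the data, −1.32 without C1q cells; the cause was not tested. With a minimum of 5 or 50 UMIs in place of 20, 676 or 66 genes were 2-fold or more higher and 815 or 78 lower, because more or fewer genes were counted. Among the 71 gene ratios of 2-fold or more and the lists with such a median, these turned. Without cells with markers of other lineages, the NK list turned to −0.10, Entpd1 to −0.30, Hdc to 2.29, S100a8 to 0.70 and S100a9 to 1.07. The NK markers other than Ccl5, Hdc, S100a8 and S100a9 were themselves used to pick the cells left out, so that setting cannot test them. The −0.10 equals the value of Ccl5 there. In thinned cells Entpd1 turned to −0.16 and Cd8a to −0.31. Without the 5 highest cells Cd207 turned to 0.59, Gzmb to −1.26, Hdc to 2.17, S100a8 to 0.59 and S100a9 to 0.0049, and under 5% mitochondrial UMIs Cd207 turned to 0.47. Sct turned to −1.40 without the 5% of cells with the most UMIs. Over all 219 gene ratios, between 7 and 26 changed sign per setting, most in thinned cells; Ccl2 turned from −0.92 to 0.84 without the 5% of cells with the most UMIs. Over 350 pairs of a list and a setting, the median changed sign in 24, in 12 of 32 lists, and the type I interferon median stayed between 0.80 and 0.99. Thinning left out the 17 cells under 3000 UMIs.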
